A study of Danio rerio with 36 samples.

Results

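Zebrafish larvae exposed to 0.00292 µM tetrabromobisphenol A (TBBPA) were compared with larvae that received only the carrier. The comparison used 6 of the 36 libraries in the series: the 3 replicates labelled 0.00292 µM TBBPA and the 3 replicates of the TBBPA carrier control (CC), matched by replicate number. All groups were AB/Tub larvae, exposed from 72 to 120 hpf and pooled as 20 whole larvae per library before RNA extraction. The TBBPA series held 18 libraries, with the CC at its low end followed by 0.000292, 0.00292, 0.0292, 0.292 and 2.92 µM, and 2.92 µM was the EC20 from an earlier toxicity test. The CC is taken here to be 0.5% DMSO, as the methods give it, although its labels name the test chemical at 0.5%. According to its methods the replicates came from different clutches. Because whole larvae were pooled, a transcript that is lower because fewer cells carry it cannot be told apart from one that is lower within each cell.

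TBBPA is a brominated flame retardant built on the bisphenol scaffold. Its halogenated rings resemble those of thyroid hormone, and it is known for binding to transthyretin and for acting on the thyroid axis. At the larval stage studied here, the liver, the exocrine pancreas, the intestine, the lens and the retina of the zebrafish are formed and active, and embryonic globins are carried by the circulating red cells.

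The libraries were of like depth. Between 7916165 and 9726117 reads lay on genes at 0.00292 µM, against 7865327 to 9472172 in the CC, and values are given as normalized counts (reads divided by a size factor of 0.894 to 1.08 at 0.00292 µM and 0.841 to 1.05 in the CC). The markers of a whole larva were present in all 6 libraries. The muscle creatine kinase gene ckma lay between 27334 and 33083 at 0.00292 µM and between 27108 and 32467 in the CC, the rod opsin gene rho between 12902 and 13295 against 10359 to 14103, and the liver fatty acid binding protein gene fabp10a between 3321 and 4749 against 3164 to 5503. In a principal component analysis of the 18 TBBPA libraries, the first component (16.2% of the variance) placed the 0.00292 µM libraries at −17.22, −5.17 and 4.59 and the CC libraries at 1.93, −7.09 and −0.94. The groups overlapped on it, while the 2.92 µM libraries lay between 22.92 and 35.92.

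No gene passed the test at 0.00292 µM. Of the 18400 genes tested with limma, 0 (0.00%) were differentially expressed genes (DEGs) against the CC, which required a p-value under 0.05 after Benjamini-Hochberg (BH) adjustment together with a 1.5-fold difference, and the smallest adjusted p-value was 1.0. The count was also 0 with edgeR and with DESeq2 on the recovered reads. At an unadjusted p-value under 0.05 limma gave 695 genes (3.78%), of which 347 (1.89%) were higher and 348 (1.89%) lower, edgeR gave 635 and DESeq2 194. The median log2 fold change over all genes was 0.00.

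The precision of this result depended on how strongly a gene was expressed. The 95% interval of the fold change lay wholly within 1.5-fold in either direction for 13143 genes (71.4%) and within 2-fold for 17355 (94.3%). Where the mean value reached 500 or more, the share within 1.5-fold was 98.9%, and for those between 10 and 50 it was 20.9%. For most of the weakly expressed genes a 1.5-fold change was therefore within the interval and not excluded at this depth and replication.

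**Figure D1:**
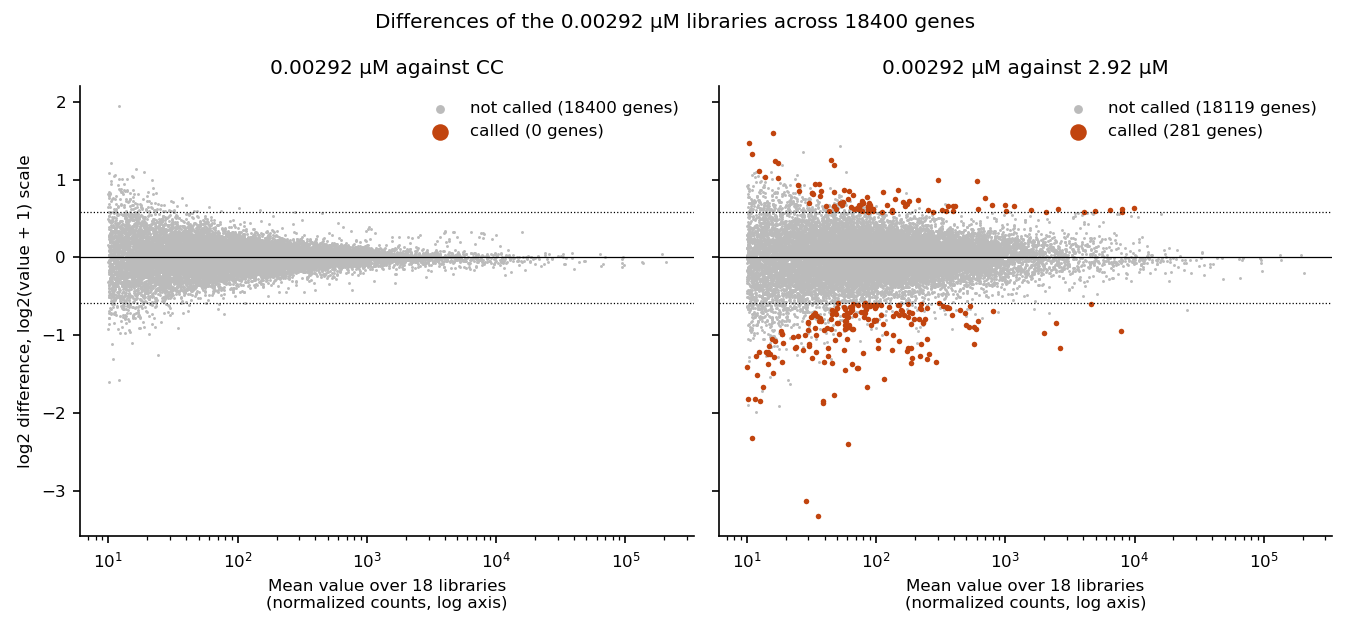
The log2 difference of each of the 18400 genes (vertical axis) is plotted against its mean normalized count over 18 libraries (log axis), for 0.00292 µM against the CC on the left and against 2.92 µM on the right. Orange points passed the test, 0 on the left and 281 on the right, and dotted lines mark 1.5-fold.

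The genes nearest to the threshold were mostly weakly expressed. In all, 95 genes were at least 1.5-fold higher and 99 at least 1.5-fold lower at 0.00292 µM in the fit and moved the same way in all 3 replicate pairs. The 12 of each direction with the smallest unadjusted p-values are described here as values, apart from 1 of the higher ones, since none of them passed the test. Of these 24, 23 had a mean value under 50, and in 11 of the higher and 9 of the lower ones the groups did not overlap. Over all genes tested, the 3 libraries at 0.00292 µM lay above all 3 of the CC for 3.91% and below them for 3.60%. The 24 genes were picked by fold change, direction and p-value, which favours groups that do not overlap. Their count without overlap therefore follows largely from how they were chosen. A 1.5-fold limit also favours weakly expressed genes. The median absolute log2 fold change was 0.18 for genes with a mean value of 10 to 50, against 0.042 for those at 500 or more.

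Of the 12 higher genes, ifngr1 and ifi27.1 have known roles in interferon signalling or its responses, a grouping made after their values were seen. The gene for a receptor subunit of interferon gamma, ifngr1, had 14.5, 19.5 and 25.3 at 0.00292 µM, against 10.7, 4.74 and 13.5 in the CC. The interferon-inducible gene ifi27.1 had 20.1, 33.4 and 15.6 at 0.00292 µM, against 13.1, 11.4 and 12.5 in the CC. In both the exposed libraries lay above all of the CC, by 1.03 ± 0.36 for ifngr1 and 0.79 ± 0.27 for ifi27.1 on the log2 scale (SE).

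Of the 13 interferon and antiviral genes tested, 6 had a positive fold change and 7 a negative one, the median log2 fold change was −0.15, and 2 were higher and 1 lower at an unadjusted p-value under 0.05, where 3.78% of all genes were in either direction. The values of 1 of the higher ones are not given here, and the other was trim25, a ubiquitin ligase of antiviral RNA sensing, with 32.4, 36.2 and 33.1 at 0.00292 µM against 26.2, 18 and 29.1 in the CC, and the lower one was the class I MHC gene mhc1zba, with 551, 516 and 582 against 626, 600 and 636. The interferon-induced ubiquitin-like modifier isg15 had 14.5, 37.1 and 7.78 at 0.00292 µM, against 27.3, 16.1 and 6.24 in the CC. Its groups overlapped, and replicate 2 at 0.00292 µM was high for both isg15 and ifi27.1.

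The other higher genes were not grouped by role. The exonuclease gene eri2 had 22.4, 13.9 and 21.4 at 0.00292 µM, against 10.7, 8.54 and 11.4 in the CC, and it had the smallest unadjusted p-value of the 12 (log2 fold change 0.83 ± 0.24, SE, limma unadjusted p = 0.00224, BH-adjusted p = 1.0). The lysophospholipase-like gene lyplal1 had 35.8, 39.0 and 44.7, against 20.2, 21.8 and 34.3 in the CC. C1QL2, a secreted C1q-like protein of synapses in mammals, had 20.1, 16.7 and 16.5, against 9.51, 5.69 and 9.36 in the CC. For eri2, lyplal1 and C1QL2 the lowest exposed library lay above the highest CC library. C1QL2 had a mean of 11.2 over the 18 libraries, close to the 10 required for testing. Its group mean was 17.8 at 0.00292 µM and between 7.8 and 13.2 in the other groups. It therefore passed that filter largely through the exposed libraries, and its lack of overlap carries little weight. The remaining genes in this set were TSTD1, C17H14orf28, pusl1, lnc.265, dact3a and zgc:112970, with log2 fold changes between 0.68 and 0.94.

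Among the 12 lower genes, MSH4, a mismatch repair homologue of meiosis, had the smallest unadjusted p-value. Its values were 81.6, 98.4 and 92.4 at 0.00292 µM, against 146, 114 and 154 in the CC. The groups did not overlap, and the log2 fold change was −0.59 ± 0.14 (SE, limma unadjusted p = 0.000415, BH-adjusted p = 1.0). INKA2 had the lowest fold change of the set, with 2.24, 8.36 and 4.86 at 0.00292 µM, against 23.8, 14.2 and 11.4 in the CC (log2 fold change −1.57 ± 0.40, SE). These are 2, 9 and 5 reads at 0.00292 µM and 20, 15 and 11 reads in the CC.

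PLAU, the urokinase that activates plasminogen, had between 7.83 and 12.6 in the 3 libraries at 0.00292 µM, against 22.6, 22.8 and 22.9 in the CC. PTX3, a pentraxin of innate immunity, had 19, 28.8 and 20.4, against 38.0, 68.3 and 30.2 in the CC, and ftr79, of the fish-specific finTRIM family, had 19, 21.4 and 14.6, against 29.7, 37.0 and 32.2. None of these overlapped between the groups, and the CC libraries of PLAU were almost equal. PTF1A, a transcription factor of the pancreas and of inhibitory neurons, had 14.5, 15.8 and 11.7 at 0.00292 µM, against 29.7, 29.4 and 19.8 in the CC (log2 fold change −0.85 ± 0.25, SE). IMMP2L, a peptidase subunit of the inner mitochondrial membrane, had 32.4, 33.4 and 31.1, against 51.1, 46.5 and 52.0, and the spread within each group was small. The others were GTPBP8, FILIP1, fbxo6.1, ANKRD1 and si:ch211-227m13.1, with log2 fold changes between −0.99 and −0.65.

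**Figure D2:**
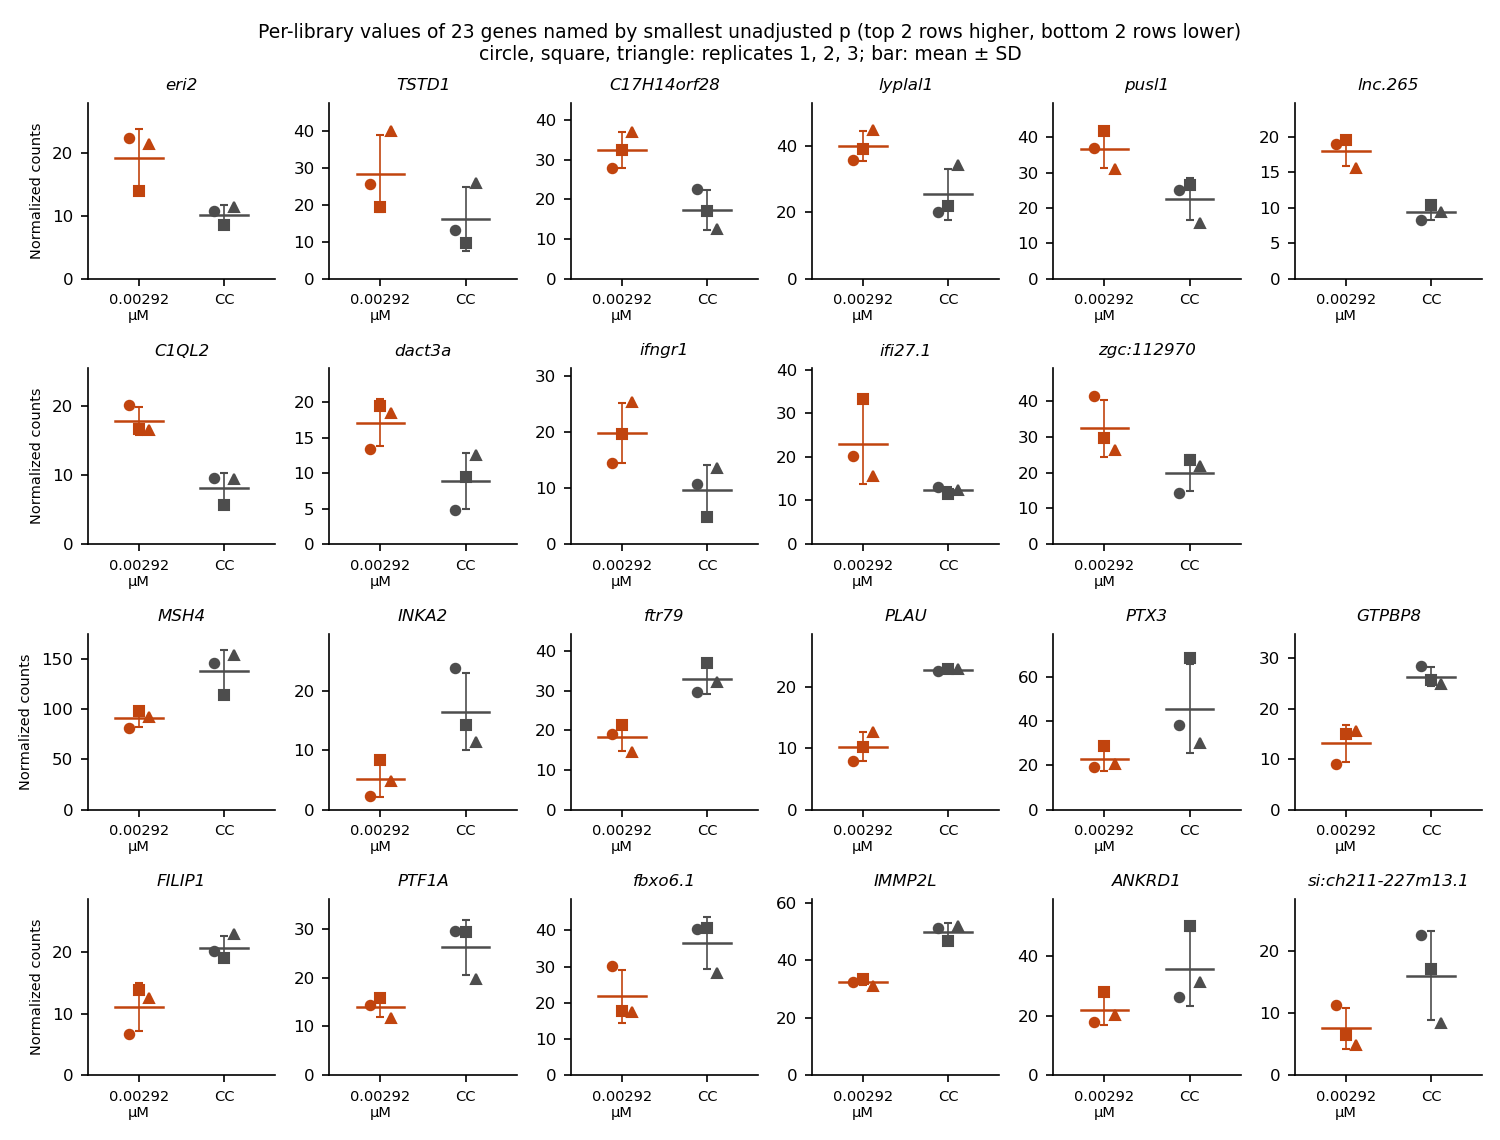
Normalized counts of 23 of these genes in each library, 0.00292 µM on the left and CC on the right of each panel, with 11 higher genes in the upper 2 rows and the 12 lower genes in the lower 2. Symbols stand for replicates 1, 2 and 3 and lines for mean ± SD (n = 3), and in 19 of the 23 panels the groups do not overlap.

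Of 30 gene lists, that of the lens and cornea had the largest share of members at an unadjusted p-value under 0.05 (37.8%). Crystallins are the structural proteins that make up the bulk of the lens fiber cells. Of the 45 lens and cornea genes tested, 41 had a positive fold change at 0.00292 µM, 17 were higher and 0 lower at an unadjusted p-value under 0.05 (limma), where 3.78% of all genes passed in either direction, and 0 passed after adjustment. The median log2 fold change was 0.23. CRYBB1, a beta crystallin, had 19922, 18245 and 14105 at 0.00292 µM, against 15793, 16418 and 9900 in the CC, and crygm2d10, a gamma crystallin of fish, had 9003, 8633 and 8022, against 7221, 7716 and 5752. For CRYBB1 the exposed library was the higher in each replicate pair although the groups overlapped, and for crygm2d10 they did not overlap. The log2 fold changes were 0.33 ± 0.10 and 0.32 ± 0.09 (SE), below 1.5-fold. The neighbouring concentrations had similar levels of the lens and cornea genes. The median log2 difference of the list was 0.04 against 0.0292 µM and −0.07 against 0.000292 µM. CRYBB1 was above the CC by 0.33 at 0.000292 µM, 0.30 at 0.0292 µM and 0.33 at 0.292 µM on the log2 scale.

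The size of the lens difference varied by replicate. The median over the 45 genes was 0.30, 0.05 and 0.34 in replicate pairs 1, 2 and 3, and 28 of the 45 were higher in all 3 pairs. Replicate 3 gave the lowest sum of the lens genes in both groups, 148257 at 0.00292 µM and 112921 in the CC, against 171200 to 177576 and 145367 to 161830 in the others. Over the alternatives tried, the median lay between 0.13 and 0.34. Negative fold changes were found for 4 of the 45, among them the beta crystallin gene crybb1l3 (log2 −0.17). The water channel gene MIP of lens fiber cells is present in 2 copies, both with negative fold changes (log2 −0.25 and −0.20), and of the cornea proteoglycan genes kera was at −0.06 and lum at 0.01. The gamma crystallins of the crygm2d family are near-identical copies. Their reads may not all have been told apart, and their values are not independent of one another.

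**Figure D3:**
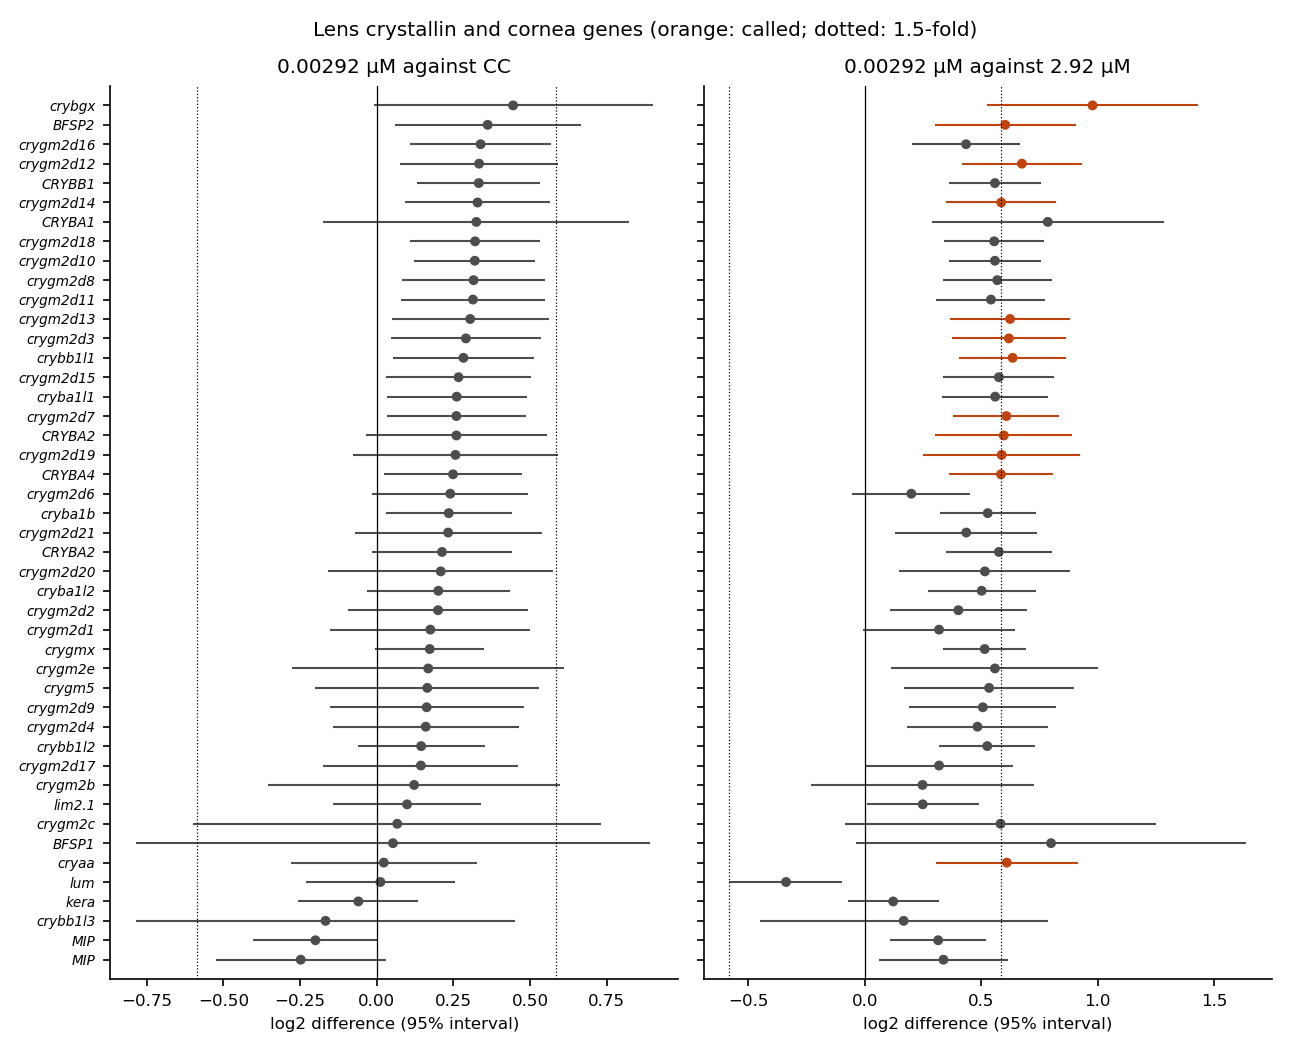
Log2 differences with 95% intervals of the 45 lens crystallin and cornea genes, 0.00292 µM against the CC on the left and against 2.92 µM on the right, in the order of the left panel. Orange marks genes that passed the test, 0 on the left and 12 on the right, and on the left 41 of 45 points lie above 0.

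In the liver the replicates disagreed with each other. Plasma proteins and complement factors are made by the larval liver and secreted into the blood. The 38 genes of this list that were tested had a median log2 fold change of −0.06, but the medians of replicate pairs 1, 2 and 3 were −0.73, −0.06 and 0.71. In pair 1 only 1 of the 38 was higher at 0.00292 µM, in pair 2 it was 14, and in pair 3 it was 36. The summed level of the list was 19658, 22479 and 25937 at 0.00292 µM, against 30111, 22771 and 18218 in the CC. The CC replicates spanned more than the exposed ones and enclosed them. The transferrin gene tfa, for example, had 1890, 2150 and 2569 at 0.00292 µM, against 3048, 1986 and 1402 in the CC (log2 fold change 0.10 ± 0.31, SE). With 9 of the 38 intervals within 1.5-fold, liver genes were measured less precisely than most.

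The hemoglobin genes behaved likewise. Of the 13 that could be matched, 8 passed the filter on low values, their median log2 fold change was 0.02, and 0 had an unadjusted p-value under 0.05. In pair 1 all 8 were lower at 0.00292 µM, whereas 7 of 8 were higher in pair 2 and 6 of 8 in pair 3. The embryonic alpha globin gene hbae1.3 had 63.8, 54.8 and 72.0 at 0.00292 µM, against 125, 35.1 and 36.4 in the CC. The beta globin gene hbbe1.3 had 171, 145 and 171, against 251, 53.1 and 104 in the CC. The exposed values thus lay close together and within the range of the CC, whose replicate 1 was high. Without that CC library the median of the list was 0.27, but over the alternatives tried it lay between −0.23 and 0.30. The 23 other genes of red cells and heme synthesis had a median of −0.02, and only the biliverdin reductase gene blvrb was at an unadjusted p-value under 0.05 (122, 138 and 138 at 0.00292 µM, against 158, 161 and 156 in the CC).

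The digestive organs were variable too. The 21 tested genes of the exocrine pancreas, which secretes the digestive proteases, lipases and amylase, had a median log2 fold change of 0.29, and 20 of them were positive. The phospholipase gene PLA2G1B had 34.7, 52.9 and 34 at 0.00292 µM, against 32.1, 25.6 and 14.6 in the CC, and the chymotrypsin-like gene ctrl had 404, 593 and 278, against 404, 298 and 167. These were the 2 members at an unadjusted p-value under 0.05 (9.52%, against 3.78% of all genes). The median was −0.17 in pair 1, 0.63 in pair 2 and 0.42 in pair 3, so that the direction did not hold in every replicate. The intestine list had a median of 0.06 over 28 genes, and 0 had an unadjusted p-value under 0.05. Its absorptive marker fabp2 had 2998, 1744 and 1910 at 0.00292 µM, against 2021, 1921 and 2389 in the CC.

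**Figure D4:**
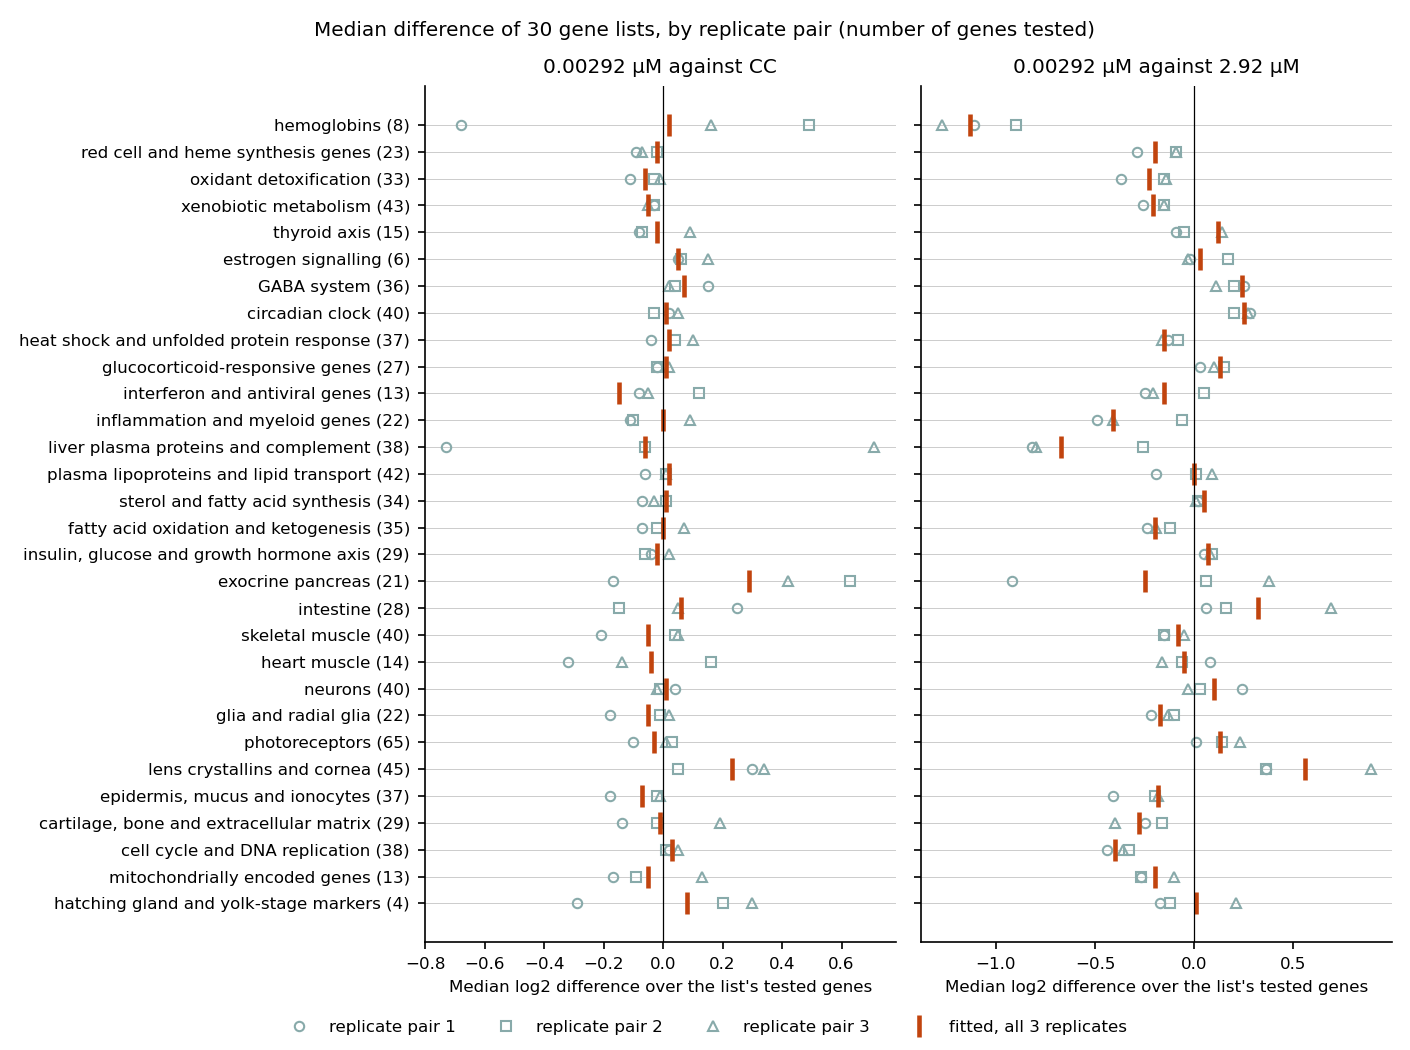
Median log2 difference of each of 30 gene lists (rows, with the number of genes tested), for 0.00292 µM against the CC on the left and against 2.92 µM on the right. Circles, squares and triangles are the medians of replicate pairs 1, 2 and 3 and orange bars those of the fit, and on the left the liver list spans −0.73 to 0.71 while the hemoglobins on the right lie below 0 in all 3 pairs.

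The lists for the hormone and receptor systems on which TBBPA is studied showed no gene past the test. In the thyroid list, 15 genes were tested and 2 were lower at an unadjusted p-value under 0.05, where 1.89% of all genes were. PAX8, a transcription factor of thyroid follicle cells and kidney, had 77.2, 63.1 and 78.8 at 0.00292 µM, against 113, 84.4 and 83.2 in the CC (log2 fold change −0.34 ± 0.15, SE). The other was klf9, a transcription factor gene induced by thyroid hormone and by glucocorticoids, with 480, 382 and 427, against 546, 493 and 484 (−0.24 ± 0.11). Both were below all CC libraries, as were 3.60% of all genes. The thyrotropin-releasing hormone gene trh had 141, 148 and 194, against 172, 155 and 156, and the deiodinase gene DIO1 had 111, 91.0 and 112, against 150, 115 and 104, with overlap in both. For estrogen signalling 6 of 16 genes passed the filter, with a median of 0.05 and 0 at an unadjusted p-value under 0.05.

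Among 27 genes known to respond to glucocorticoids, the median was 0.01, with 2 higher and 2 lower at an unadjusted p-value under 0.05, where 3.78% of all genes were in either direction. The leucine zipper gene tsc22d3 had 298, 307 and 323 at 0.00292 µM, against 226, 238 and 222 in the CC, without overlap (log2 fold change 0.43 ± 0.14, SE, limma unadjusted p = 0.00657). The phosphatase gene DUSP1 had 470, 538 and 465, against 637, 624 and 475. The steroid hydroxylase gene cyp11c1 had 33.6, 19.5 and 19.5, against 19, 17.1 and 10.4. Together with klf9 these genes lay on both sides of 0, and fkbp5, a chaperone that restrains the glucocorticoid receptor, was at −0.05 ± 0.17.

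The genes of GABA signalling, the main inhibitory transmitter system of the brain, had mostly small positive fold changes. Of 36 tested, 26 had a positive fold change, the median was 0.07, and 3 were higher and 0 lower at an unadjusted p-value under 0.05 (limma), where 1.89% of all genes were higher. All 3 encode receptor subunits. GABRR1 had 332, 331 and 368 at 0.00292 µM, against 332, 280 and 252 in the CC. GABRR2 had 221, 195 and 224, against 190, 183 and 179, and gabrd had 421, 441 and 485, against 366, 391 and 414. In 7 of the 36 genes the exposed libraries lay above all of the CC, where 3.91% of all genes did. No fold change among these 3 was above 0.26 on the log2 scale, and the synthesis enzyme gene GAD1 (the copy with the higher level) had 4798, 4604 and 4949, against 4848, 4373 and 4549.

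The lists for detoxification and stress had medians close to 0. Of 43 genes of xenobiotic metabolism, 2 were lower and 0 higher at an unadjusted p-value under 0.05 (limma), a share of 4.65% beside 3.78% of all genes, with a median of −0.05. The epoxide hydrolase gene EPHX1 had 108, 101 and 106 at 0.00292 µM, against 132, 129 and 122 in the CC, and gstt1b, a glutathione transferase gene, had 61.5, 52.0 and 50.6, against 83.2, 72.1 and 59.3. EPHX1 did not overlap, while gstt1b did. The aryl hydrocarbon receptor target cyp1a had 111, 162 and 146, against 145, 180 and 115 (log2 fold change −0.07 ± 0.18, SE). None of the 33 genes of oxidant detoxification had an unadjusted p-value under 0.05, and their median was −0.06. For the heat shock and unfolded protein response the median was 0.02 over 37 genes, with 26 positive fold changes and 2 genes higher at an unadjusted p-value under 0.05. These were the transcription factor gene atf4b, with 206, 184 and 258 at 0.00292 µM, against 171, 161 and 197 in the CC (log2 fold change 0.28 ± 0.10, SE), and SDF2L1 of the endoplasmic reticulum, with 141, 117 and 139, against 119, 103 and 112. Both were higher in all 3 pairs, with overlap between the groups. The heat shock gene hsp70l was at 79.4, 83.6 and 68.1, against 73.7, 76.8 and 69.7.

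In muscle, brain and skin the medians were also small. The 40 skeletal muscle genes had a median of −0.05, with 1 of 40 higher in pair 1, 28 in pair 2 and 26 in pair 3. Among 40 neuronal genes the neurofilament gene nefla was the 1 member at an unadjusted p-value under 0.05, with 148, 220 and 169 at 0.00292 µM, against 233, 242 and 245 in the CC (log2 fold change −0.44 ± 0.13, SE). It did not overlap between the groups. In glia, her4.2, a Notch target of radial glia, had 107, 123 and 159 at 0.00292 µM, against 147, 162 and 178 in the CC, with overlap. The median of the 22 glial genes was −0.05, with 1 higher and 2 lower at an unadjusted p-value under 0.05 (13.6%, against 3.78% of all genes). The 37 genes of epidermis, mucus and ionocytes had a median of −0.07 and 28 negative fold changes. Of these 37, 2 were lower and 0 higher at that limit (5.41%). All 13 mitochondrially encoded genes had negative fold changes with a median of −0.05, but 9 of the 13 were higher at 0.00292 µM in pair 3. At an unadjusted p-value under 0.05, 2 of the 13 were lower and 0 higher (15.4%, against 3.78% of all genes). None of the 65 photoreceptor genes and none of the 40 clock genes had an unadjusted p-value under 0.05 (limma), and their medians were −0.03 and 0.01.

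Among genes with a mean of at least 1000, the smallest unadjusted p-values also belonged to small differences. Of the 5 such genes with positive fold changes, 4 were crystallins (CRYBB1, crygm2d10, crygmxl2 and crygm2d18), and the other was scinla, a gelsolin-family gene of the cornea in fish, with 2717, 2524 and 3146 at 0.00292 µM, against 2305, 2475 and 2184 in the CC. Its groups did not overlap (log2 fold change 0.26 ± 0.08, SE). The 5 with negative fold changes were ENSDARG00000105274 (−0.30), C19H6orf62 (−0.16), the mitochondrial MT-ND3 (−0.16), the actin-severing cofilin CFL1 (−0.12) and the cathepsin ctsl.1 (−0.17). Of these, CFL1 had 3819, 3676 and 3835 at 0.00292 µM, against 4082, 3845 and 4415 in the CC, also without overlap.

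The neighbouring concentrations were compared with 0.00292 µM directly. Against 0.0292 µM, limma called 0 genes (0.00%), with 683 (3.71%) at an unadjusted p-value under 0.05, and edgeR and DESeq2 also called 0. Against 0.000292 µM, 1266 genes (6.88%) had an unadjusted p-value under 0.05, and 2 genes (0.0109%) passed the test, both higher at 0.00292 µM. The transcription factor gene klf9 had 480, 382 and 427 at 0.00292 µM, against 315, 226 and 275 at 0.000292 µM (log2 difference 0.66 ± 0.11, SE, limma BH-adjusted p = 0.0485). The unnamed gene ENSDARG00000117450 had 16.8, 15.8 and 16.5, against 7.19, 1.00 and 2.03 (2.24 ± 0.37, adjusted p = 0.0485). At 0.000292 µM 1 read was worth 1.03, 1.00 and 1.01 in replicates 1, 2 and 3, so this gene's values there rest on few reads. Neither gene overlapped between these groups. For both genes the CC libraries lay above those at 0.00292 µM, at 484 to 546 for klf9 and 18.7 to 24.7 for ENSDARG00000117450. These 2 calls were made against the lowest concentration. Its replicate 2 stood apart on the second principal component (37.68, against −19.41 to 16.72 for the other 17 libraries). For klf9 the other libraries at 0.000292 µM, with 315 and 275, also lay below all of those at 0.00292 µM. The same held for ENSDARG00000117450, with 7.19 and 2.03. Without replicate 2 at 0.000292 µM limma called 0 genes, in a fit with fewer samples, and the cause was not tested. With all 18 libraries edgeR called 0 and DESeq2 4.

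The difference from the EC20 was far wider. Between 0.00292 and 2.92 µM, 281 genes (1.53%) passed the test, of which 91 (0.495%) were higher and 190 (1.03%) lower at 0.00292 µM, and 4090 (22.2%) had an unadjusted p-value under 0.05. The count was 323 with edgeR and 142 with DESeq2. Without the replicate number as a block it was 87. It fell to 106, 180 and 167 without replicate 1, 2 or 3 at 0.00292 µM. Without replicate 1, 2 or 3 at 2.92 µM it was 139, 279 and 111. Leaving out replicate 1, 2 or 3 of every group gave 78, 259 and 56. The count was higher, at 350, with only the 6 libraries compared, and at 361 without replicate 2 at 0.000292 µM. The genes described next were chosen after their values were seen.

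Against the CC, the 190 lower genes had a median log2 fold change of −0.13 at 0.00292 µM and the 91 higher ones 0.17, and 139 of the 281 had an interval within 1.5-fold of the CC. These medians share the exposed libraries with the comparison that chose the genes. The sulfotransferase gene sult5a1 had 12.3, 7.43 and 11.7 at 0.00292 µM, against 58.1, 76.8 and 208 at 2.92 µM, and 15.5, 10.4 and 12.5 in the CC. The immune-responsive gene irg1l, whose mammalian relative makes itaconate, had 44.7, 24.1 and 32.1 at 0.00292 µM, against 105, 154 and 344 at 2.92 µM, and 32.1, 32.3 and 40.6 in the CC. For both, 0.00292 µM overlapped the CC and lay below every library at 2.92 µM, by −3.13 ± 0.49 and −2.40 ± 0.43 on the log2 scale (SE, limma BH-adjusted p = 0.0024 and 0.00577). Against the CC the intervals of these genes at 0.00292 µM were wide, from −1.30 to 0.75 for sult5a1 and from −0.98 to 0.81 for irg1l. The same order was seen for si:ch211-153b23.3, with 23.5, 4.64 and 8.75 at 0.00292 µM, against 56.3, 85.4 and 270 at 2.92 µM, and 9.51, 9.49 and 23.9 in the CC.

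All 8 hemoglobin genes tested were lower at 0.00292 than at 2.92 µM and passed the test, against 1.03% of all genes, with a median log2 difference of −1.13. The alpha globin gene hbae1.3 had 63.8, 54.8 and 72.0 at 0.00292 µM, against 251, 143 and 233 at 2.92 µM, and the beta globin gene hbbe2 had 42.5, 37.1 and 46.7, against 91.9, 104 and 97. For all 8 the libraries at 0.00292 µM lay below those at 2.92 µM, which was so for 11.6% of all genes. The 8 genes were measured in the same libraries, so their values are not independent of one another. Their replicate order was shared only in part. At 2.92 µM hbbe1.3 had 470, 257 and 524 in replicates 1, 2 and 3, while HBE1 had 1000, 1050 and 855. The anion exchanger gene of red cells, slc4a1a, differed in the same direction (45.9, 68.7 and 51.6, against 133, 130 and 189), and it was the 1 gene that passed among the 23 other red cell and heme genes. In the liver plasma protein and complement list 6 of 38 genes passed, all lower at 0.00292 µM, where 1.03% of all genes were, with c4b at 30.2, 29.7 and 29.2, against 190, 57.6 and 100 at 2.92 µM.

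In the list of epidermis, mucus and ionocytes, 5 of 37 genes passed, all lower at 0.00292 µM, where 1.03% of all genes were. In that of the heat shock and unfolded protein response 1 of 37 passed, also lower, beside the same 1.03%. Values follow for 3 of all the genes that passed in this comparison. Of these, aqp3a is in the list of epidermis, mucus and ionocytes, and elf3 is not. The water channel gene aqp3a had 619, 715 and 820 at 0.00292 µM, against 1130, 1011 and 1320 at 2.92 µM, and the epithelial transcription factor gene elf3 had 246, 167 and 196, against 364, 467 and 636. The stress-induced transcription factor gene atf3 had 87.2, 83.6 and 96.3, against 197, 115 and 166. In each of these the groups did not overlap (log2 differences −0.68 ± 0.09, −1.25 ± 0.18 and −0.80 ± 0.14, SE, adjusted p from 0.00066 to 0.00577). Of 38 cell cycle genes 3 passed, all lower, where 1.03% of all genes were, among them the nucleotide synthesis genes RRM2 (200, 202 and 200, against 365, 275 and 321) and TYMS (61.5, 65.9 and 75.9, against 114, 88.6 and 134), and the median of that list was −0.40.

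The genes higher at 0.00292 than at 2.92 µM included lens genes. In the lens list 12 of 45 passed, all higher at 0.00292 µM, where 0.495% of all genes were, with a median log2 difference of 0.56. The median was 0.36, 0.36 and 0.89 in replicate pairs 1, 2 and 3. Replicate 3 at 2.92 µM had the lowest sum of the lens genes (82097, against 136279 and 134113 in replicates 1 and 2). An example is the beta crystallin gene crybb1l1, with 11181, 12014 and 8387 at 0.00292 µM, against 7383, 8214 and 4958 at 2.92 µM. Its lowest library at 0.00292 µM lay just above the highest at 2.92 µM. In the CC crybb1l1 had 9284, 11252 and 5984. The 2.92 µM libraries did not pass the test against the CC for this gene (log2 fold change −0.35, limma BH-adjusted p = 0.0821). The bZIP repressor gene nfil3-6, of a family tied to the circadian clock, had 1332, 1360 and 1011, against 781, 777 and 769. Of the 40 clock genes 1 passed, higher at 0.00292 µM, where 0.495% of all genes were. In 24 of the 40 the 0.00292 µM libraries lay above all of the 2.92 µM ones, where 11.2% of all genes did. The photoreceptor calcium sensor gene guca1d had 45.9, 59.4 and 55.4, against 21.6, 27.7 and 17.2, and klf9 had 480, 382 and 427, against 295, 226 and 295. Both were called (log2 differences 1.25 ± 0.19 and 0.66 ± 0.11, SE, adjusted p = 0.00213 and 0.00454).

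Of the 281 genes, 15 were called under all 15 processing alternatives set out for this comparison. They were zgc:111983, zgc:100868, si:dkey-247k7.2, aqp3a, tmem176l.4, si:ch211-207n23.2, elf3, cldn23a, zgc:158404, DHRS13, hyou1, tmem176l.3b and si:dkey-7c18.24, all lower at 0.00292 µM, and klf9 and zgc:158846, which were higher. For DHRS13 (ENSDARG00000098746), a short-chain dehydrogenase gene, the values were 220, 172 and 130 at 0.00292 µM, against 233, 245 and 218 in the CC, and 335, 312 and 247 at 2.92 µM. It was below the CC in all 3 pairs (log2 fold change −0.44, limma unadjusted p = 0.00184) as well as below 2.92 µM.

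**Figure D5:**
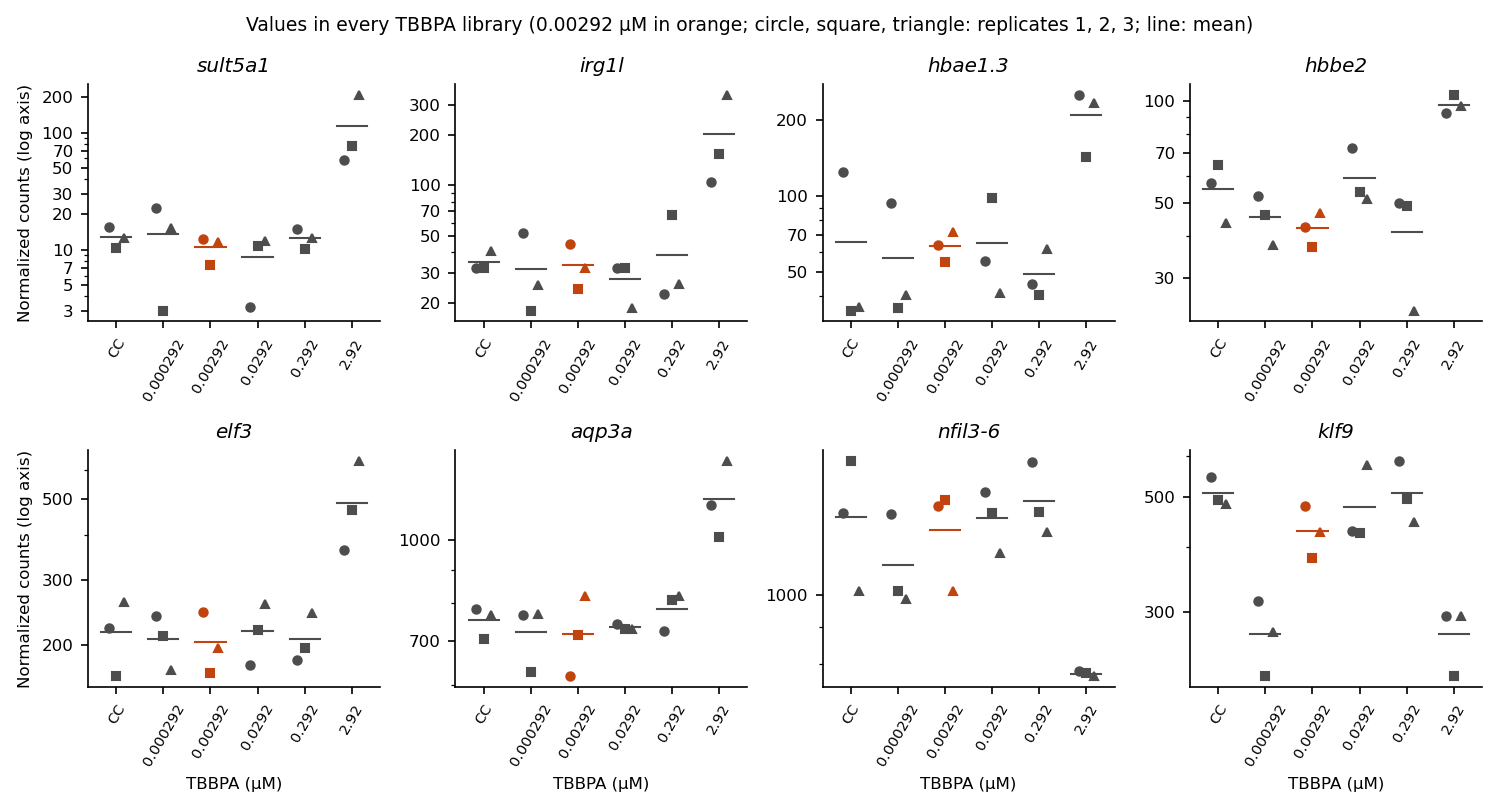
Normalized counts (log axis) of 8 genes in all 18 TBBPA libraries, in order of concentration from the CC to 2.92 µM, with 0.00292 µM in orange. Symbols are replicates 1, 2 and 3 and lines are means, and for sult5a1, irg1l, hbae1.3, hbbe2, elf3 and aqp3a the 0.00292 µM libraries lie below all 2.92 µM libraries while for nfil3-6 and klf9 they lie above them.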

How the data were processed

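RNA-seq libraries were made from total RNA of 20 pooled larvae with a stranded mRNA kit. According to the methods and the submitters' processing notes, the authors used cutadapt for trimming, STAR (GRCz11) for alignment and gene counts, and DESeq2 for normalization. The authors deposited a signal on a linear scale, counts divided by a size factor per library. Whole reads could be recovered for 100% of the values of each library (relative tolerance 1e-06), and in replicate 2 at 0.000292 µM 1 read is worth so nearly 1 that recovery could not be checked formally. Genes were identified by Ensembl ID, and 24665 of 26639 were matched to a symbol. Symbols in capitals are printed as the gene name table gives them for these zebrafish genes, and some are shared by several copies.

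Groups were compared by limma 3.58.1 (R 4.3.3) on log2(value + 1), a scale that understates changes of low genes. The fit covered the 18 TBBPA libraries and had a term for replicate number, which the authors' own model also contained. Genes with a mean of at least 10 were kept. Alternatives included edgeR 4.0.16 and DESeq2 1.42.0 on the recovered reads, and leaving out each replicate in turn. Leaving out single libraries was chosen after seeing the data. Intervals are 95% intervals of the fit. Replicates of a group differed by more than counting noise (chi-square per degree of freedom 4.05 to 5.73 at 0.00292 µM and 3.57 to 5.56 in the CC). Deviations from group means correlated at a median of 0.166 between same-numbered libraries and −0.079 between others, and at 0.0968, 0.165 and 0.143 for the 3 pairs of 0.00292 µM and the CC. The scripts were tested on simulated data.

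The members, the 30 gene lists and the tests were chosen with earlier results of these data known. Named genes were every DEG (0), then 12 per direction with the smallest unadjusted p-values among those at least 1.5-fold changed and moving the same way in 3 pairs, the first 2 and the 4 smallest p-values of each list, and 5 abundant genes per direction. Lists are described by counts and medians. A few genes that this rule would name are not reported here. BPA libraries were not used here.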

Additional observations from a re-analysis of the deposited data

How the results depend on the processing

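The count of 0 DEGs against the CC held under all 23 alternatives tried, including an adjusted p-value limit of 0.10, no minimum fold and leaving out any replicate, and the count of 0 against 0.0292 µM held under all 15. Against 0.000292 µM the 2 calls became 0 with a pseudocount of 10, with no filter on low values, with a mean of at least 50, with no replicate block, with edgeR, with TMM scaling and without replicate 2 of 0.000292 µM, and 4 with DESeq2 and with quantile normalization, and leaving out each replicate in turn gave 0 to 8. Against 2.92 µM the 281 calls became 87 with no replicate block, 142 with DESeq2 and 361 without replicate 2 at 0.000292 µM. Leaving out each replicate in turn gave 56 to 259, and leaving out a single library of 0.00292 µM, 2.92 µM or the CC gave 106 to 306. The fits that left out libraries had fewer samples, and the cause of the changed counts was not tested. Of 39 genes followed against the CC, 36 kept their direction throughout. Most of the 39 were picked by small p-values in this comparison, many also by moving the same way in all 3 pairs. Such a choice favours a kept direction. The exceptions were hbae1.3 (−0.17 to 0.80 on the log2 scale), irg1l (−0.37 to 0.14) and si:ch211-153b23.3 (−1.12 to 0.19), whose direction turned when a replicate or library was left out. These 3 were named because of earlier results at 2.92 µM. None of 92 genes followed against 2.92 µM turned. These were picked largely from genes that had passed that test, which favours a kept direction. Fewer genes kept the call itself, as 15 of the 281 (5.34%) were called under all 15 alternatives. Of these alternatives, 1 tested only genes with a mean of at least 50, so that weaker genes could not be called. It shared 191 of the 281 calls. The 3 replicates per group and the read depth limit what can be seen for genes with a mean under 50.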
